A study of Sus scrofa with 13 samples.

Results

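A list of 10 genes of fat cells and lipid storage was examined in the loin muscle of pigs, and 7 of them were found in the raw count tables of both breeds, out of 25322 genes in all. It held ADIPOQ, FABP4, PLIN1, LPL, PNPLA2, LIPE, FASN, SCD, CIDEC and PPARG, and a gene was taken when its symbol, or the reference name of its Ensembl identifier, was present in both tables. PLIN1, PNPLA2, LIPE, FASN, SCD, CIDEC and PPARG were matched, while ADIPOQ, FABP4 and LPL matched no gene by name and were not analysed here. The rule itself used no measured value, but the list was drawn up with earlier results of these data known.

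The study sequenced RNA of the longissimus lumborum, the long back muscle of the loin, from 13 unrelated female pigs at the age of 6 months. The 2 groups of a breed stood at opposite ends of loin weight, so that comparing them asked which transcripts differ with muscle mass. There were 3 Hampshire pigs with high loin weight (numbered 8, 9 and 10), 3 Hampshire pigs with low loin weight (1, 2 and 3), 4 Pietrain pigs with high loin weight (1, 2, 6 and 7) and 3 Pietrain pigs with low loin weight (3, 5 and 8). The study's summary of loin weights lists 3 Pietrain pigs in the high group, while the labels give 4, and all 4 were used. All animals were housed and fed in the same way, no group had a treatment or an engineered allele on its labels, and each library came from the whole muscle tissue of 1 pig.

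Muscle stores fat in small droplets inside the fibres and in fat cells lying between them, which make up the marbling of meat. Fatty acids are built by synthases and desaturases, packed as triglyceride into droplets whose surface is coated by perilipins and CIDE proteins, and released by lipases when energy is needed. PPARG, a nuclear receptor, switches on much of this programme when a precursor becomes a fat cell.

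Total counts per pig ran from 11312755 to 20134612. The 4 muscle fibre markers matched, which include the creatine kinase gene CKM, summed to between 92424 and 242650 CPM (counts per 1e6 counts) in the 13 pigs. Of the defining fat cell markers, ADIPOQ, FABP4 and LEP matched no gene. PLIN4, a listed marker also found in muscle, matched but went the other way from PLIN1 and CIDEC in Hampshire pigs. Its mean was 67.7 CPM in the high and 143 CPM in the low Hampshire pigs. The fat cell label thus rested on PLIN1 and CIDEC, which were present in every pig but at low levels. PLIN1 had between 5 and 97 counts and CIDEC between 14 and 222, and the precision of both is limited by these numbers. All levels below are CPM after TMM scaling over the 13 pigs, and they are compared between pigs and not between genes, since no transcript lengths were used. In a piece of whole muscle, a change in the number of fat cells, in RNA per fat cell or in RNA of the muscle fibres cannot be told apart.

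In Hampshire pigs, transcripts of both lipases and of the droplet protein CIDEC were higher at high loin weight, by 2.99-fold for PNPLA2, 3.52-fold for LIPE and 4.59-fold for CIDEC. These 3 of the 7 genes were differentially expressed genes (DEGs) by edgeR's quasi-likelihood test, which here means a Benjamini-Hochberg adjusted p below 0.05 together with a change of 1.2-fold or more. The background was high: 26.6% of all 12228 genes tested were DEGs in this comparison and 12.0% were DEGs with higher levels at high loin weight. The log2 fold change was above 0 for 6 of the 7 genes, against 51.6% of all genes, and its median was 1.58, against 0.03 over all genes. In 4 of the 7 genes (LIPE, PNPLA2, CIDEC and PPARG) every high pig lay above every low pig, which held for 22.4% of all genes. In Pietrain pigs 0 of the 7 genes and 0 of 12065 genes were DEGs. The study's own DESeq2 analysis did report DEGs in Pietrain pigs, with PNPLA2 among those higher at high loin weight. The reason for this difference was not tested.

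PLIN1, the perilipin that coats the large droplet of fat cells, lies on chromosome 7 from 60126614 to 60139897 of Sscrofa10.2 (ENSSSCG00000001844). In Hampshire pigs its level was 2.11, 8.82 and 3.84 CPM in the high pigs 8, 9 and 10, and 1.53, 2.19 and 0.631 CPM in the low pigs 1, 2 and 3. The groups met at high pig 8 and low pig 2, while pig 9 stood above all others. High pigs exceeded low pigs by 1.71 on the log2 scale (SE 0.578), with an edgeR adjusted p of 0.0562. PLIN1 passed with DESeq2 (adjusted p = 0.0112) and, in edgeR, without high pig 8 (2.04, adjusted p = 0.0295), and was 0.99 without pig 9 (adjusted p = 0.218). In Pietrain pigs the level was 3.91, 2.38, 0.909 and 0.600 CPM in the high pigs 1, 2, 6 and 7, and 0.493, 0.396 and 0.538 CPM in the low pigs 3, 5 and 8. All 4 high pigs lay above the 3 low pigs, but pigs 6 and 7 lay close to them and pigs 1 and 2 well above. The log2 difference of 2.02 (SE 0.691) had an unadjusted edgeR p of 0.0145 and an adjusted p of 0.939, and rested on 5 to 8 counts per low pig. An exact two-sided permutation test gave p = 0.114.

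CIDEC, which fuses small droplets into large ones (ENSSSCG00000011557, with no position in the tables used), gave 4.63, 20.2 and 4.35 CPM in Hampshire high pigs 8, 9 and 10. The Hampshire low pigs 1, 2 and 3 had 2.14, 3.01 and 0.981 CPM. All high pigs exceeded all low pigs, and pig 9 had more than 4 times the level of the other high pigs. The log2 difference of 2.20 (SE 0.643) passed with an edgeR adjusted p of 0.0358. Without pig 9 it was 1.08 with an edgeR adjusted p of 0.121, and it also missed the threshold without low pig 1, 2 or 3, with adjusted p of 0.0911, 0.0512 and 0.120; over the 6 fits the adjusted p ran from 0.0287 to 0.121. In Pietrain pigs CIDEC was 7.24, 4.13, 2.27 and 1.45 CPM in high pigs 1, 2, 6 and 7, and 2.05, 2.69 and 2.08 CPM in low pigs 3, 5 and 8. The low pigs lay inside the range of the high pigs, with a log2 difference of 0.75 (SE 0.509, edgeR adjusted p = 0.939).

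PPARG, on chromosome 13 from 75578055 to 75650239 (ENSSSCG00000011579), was 2.25, 9.09 and 2.17 CPM in Hampshire high pigs 8, 9 and 10, and 1.53, 1.85 and 1.12 CPM in low pigs 1, 2 and 3. The groups did not overlap, but pigs 8 and 10 lay close to the low pigs. The mean difference on the log2 scale was 1.54 (SE 0.569), with an edgeR adjusted p of 0.0739. Without pig 9 it was 0.52, with an adjusted p of 0.321. With DESeq2 it passed, at an adjusted p of 0.0241, the smallest over its alternatives. In edgeR it passed with 1 fit over all 13 pigs (adjusted p = 0.0473), with a trend with gene length removed (0.0425) and without high pig 8 (0.0487). In Pietrain pigs the levels were 2.89, 3.43, 2.08 and 1.65 CPM in high pigs 1, 2, 6 and 7 and 2.05, 2.37 and 1.55 CPM in low pigs 3, 5 and 8. They overlapped, with a log2 difference of 0.36 (SE 0.380, edgeR adjusted p = 0.939).

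PNPLA2, the adipose triglyceride lipase (ATGL) that takes the first fatty acid off a stored triglyceride, lies on chromosome 2 from 156291 to 161297 (ENSSSCG00000012841). Its level in Hampshire pigs was 133, 153 and 192 CPM in high pigs 8, 9 and 10, and 30.9, 68.7 and 60.9 CPM in low pigs 1, 2 and 3. The lowest high pig lay well above the highest low pig, with means of 159 ± 30.0 CPM (SD, n = 3) and 53.5 ± 19.99 CPM (SD, n = 3). The log2 difference was 1.58 (SE 0.292, edgeR adjusted p = 0.00746). It stayed a DEG with each of the 6 pigs left out in turn, between 1.26 and 1.79. In Pietrain pigs PNPLA2 was 32.3, 37.5, 22.2 and 58.8 CPM in high pigs 1, 2, 6 and 7, and 25.8, 21.1 and 24.9 CPM in low pigs 3, 5 and 8. Pigs 1, 2 and 7 lay above the low pigs and pig 6 among them. This gave a log2 difference of 0.69 (SE 0.307), with an unadjusted edgeR p of 0.0467 and an adjusted p of 0.939.

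LIPE, hormone-sensitive lipase, which acts on the diglyceride that PNPLA2 leaves, lies on chromosome 6 from 45444859 to 45454620 (ENSSSCG00000003018). Hampshire high pigs 8, 9 and 10 had 19.4, 46.9 and 25.4 CPM and low pigs 1, 2 and 3 had 6.67, 10.8 and 8.34 CPM. Each high pig exceeded each low pig, with means of 30.6 ± 14.5 CPM (SD, n = 3) and 8.62 ± 2.10 CPM (SD, n = 3). The log2 difference was 1.82 (SE 0.333, edgeR adjusted p = 0.00727), and it was a DEG in all 6 fits that left out a pig, at 1.35 without pig 9. In Pietrain pigs LIPE was 8.68, 5.17, 1.82 and 6.30 CPM in high pigs 1, 2, 6 and 7, and 3.37, 4.04 and 2.55 CPM in low pigs 3, 5 and 8. High pig 6 was the lowest of the 7 Pietrain pigs and the other high pigs were above all low pigs. The log2 difference of 0.76 (SE 0.459) had an edgeR adjusted p of 0.939.

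**Figure D1:**
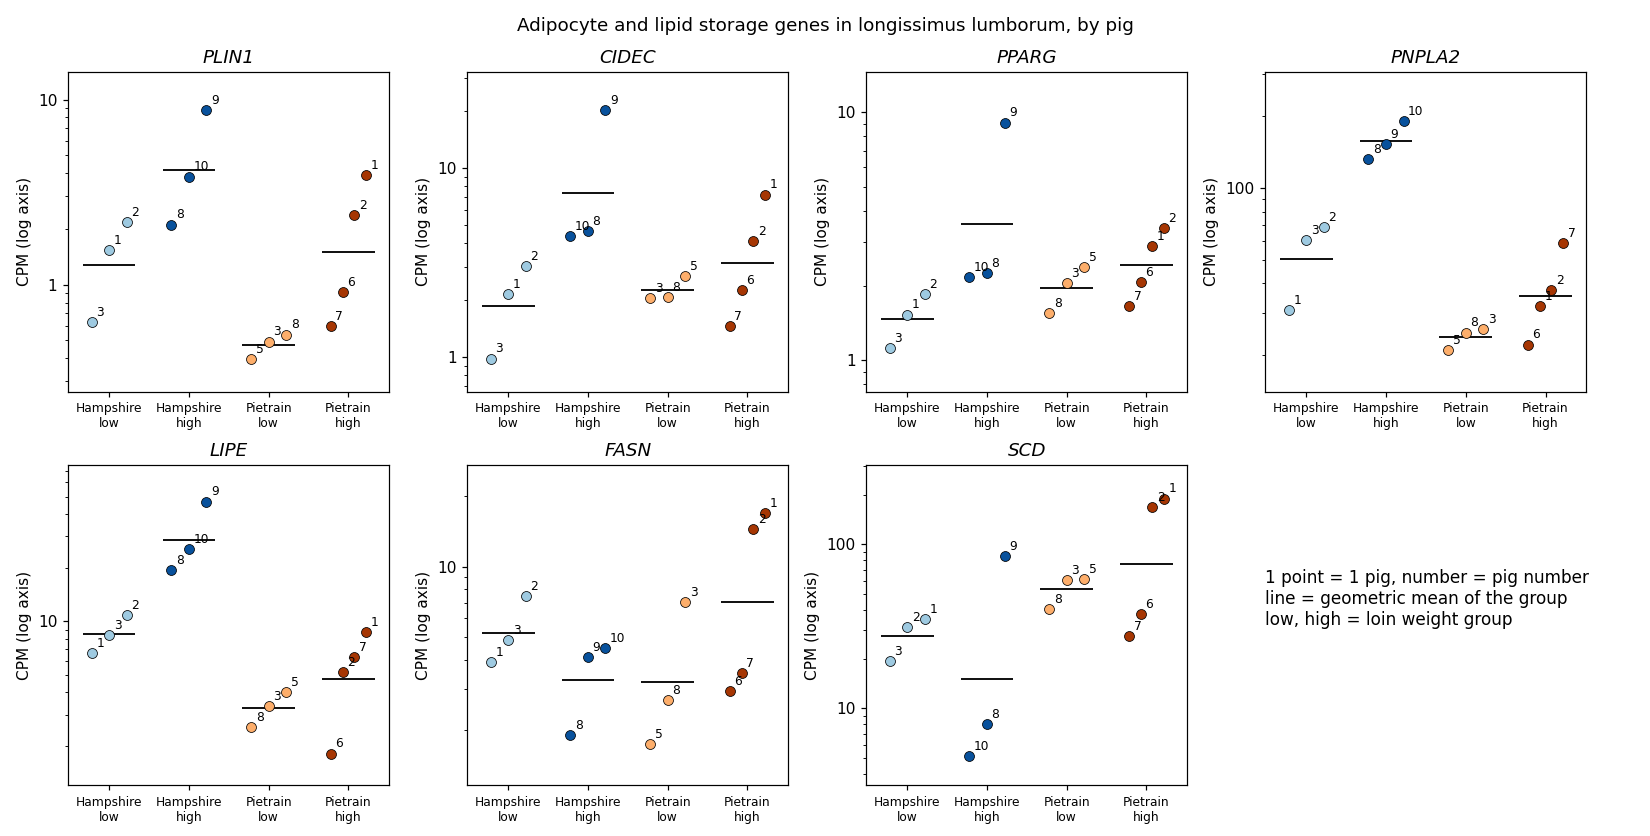
Level of each of the 7 lipid storage genes in each pig, in TMM-scaled CPM on a log axis with a separate scale per gene; each point is 1 pig with its number, and the line is the geometric mean of the group. PNPLA2 and LIPE separate the Hampshire high pigs from all other pigs, while Hampshire high pig 9 stands apart from pigs 8 and 10 for CIDEC, PPARG and SCD.

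For the enzymes of fatty acid synthesis and desaturation, FASN and SCD, no difference passed the test in Hampshire pigs. FASN, the synthase that builds palmitate, lies on chromosome 12 from 1023477 to 1034681 (ENSSSCG00000029944). It was 1.91, 4.09 and 4.48 CPM in Hampshire high pigs 8, 9 and 10, and 3.92, 7.49 and 4.83 CPM in low pigs 1, 2 and 3. The groups overlapped, with the lowest value in a high pig and the highest in a low pig, and the log2 difference was -0.63 (SE 0.378, edgeR adjusted p = 0.238). In Pietrain pigs FASN was 17.0, 14.5, 2.92 and 3.50 CPM in high pigs 1, 2, 6 and 7, and 7.06, 1.74 and 2.69 CPM in low pigs 3, 5 and 8. Pigs 1 and 2 were high, and pigs 6 and 7 lay within the range of the low pigs. The log2 difference was 1.32 (SE 0.689, edgeR adjusted p = 0.939).

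SCD, the desaturase that turns stearate into oleate, lies on chromosome 14 from 120964206 to 120980914 (ENSSSCG00000010554). Hampshire high pigs 8, 9 and 10 had 8.04, 85.3 and 5.12 CPM, and low pigs 1, 2 and 3 had 35.0, 31.3 and 19.5 CPM. Pig 9 was above all low pigs, and pigs 8 and 10 were below all of them. The log2 difference over all 6 pigs was 0.17 (SE 0.862, edgeR adjusted p = 0.900). Without pig 9 it was -2.16 (SE 0.321) with an edgeR adjusted p of 0.0111, so that its sign changed. Its sign also changed without low pig 3, at -0.05, and the range with each pig left out was -2.16 to 0.69. In Pietrain pigs SCD was 190.0, 168, 37.4 and 27.7 CPM in high pigs 1, 2, 6 and 7, and 60.8, 61.1 and 40.3 CPM in low pigs 3, 5 and 8. As for FASN, pigs 1 and 2 stood above the low pigs, while pigs 6 and 7 were below them. The log2 difference was 1.00 (SE 0.599, edgeR adjusted p = 0.939).

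In Pietrain pigs PLIN1 passed the filter on low counts only through the high pigs, so its higher level there was partly fixed by the filter and is given as a value. The log2 differences of the other 6 genes were all above 0, which held for 52.4% of all genes. None of the 7 passed edgeR's quasi-likelihood test after adjustment, and DESeq2 called 0 as well. Beside PLIN1, only PNPLA2 had an unadjusted edgeR p under 0.05, 1 of the other 6 genes against 3.30% of all genes. In 0 of these 6 genes did every high pig lie above every low pig, against 2.08% of all genes. The smallest p an exact permutation test can reach with 4 against 3 pigs is 0.0286, and with 3 against 3 it is 0.1, which LIPE, PNPLA2, CIDEC and PPARG gave in Hampshire pigs. Leaving out each pig in turn left the direction of all 7 genes as it was in Pietrain pigs wherever the gene was tested, although PLIN1 passed the filter on low counts in only 4 of the 7 fits.

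**Figure D2:**
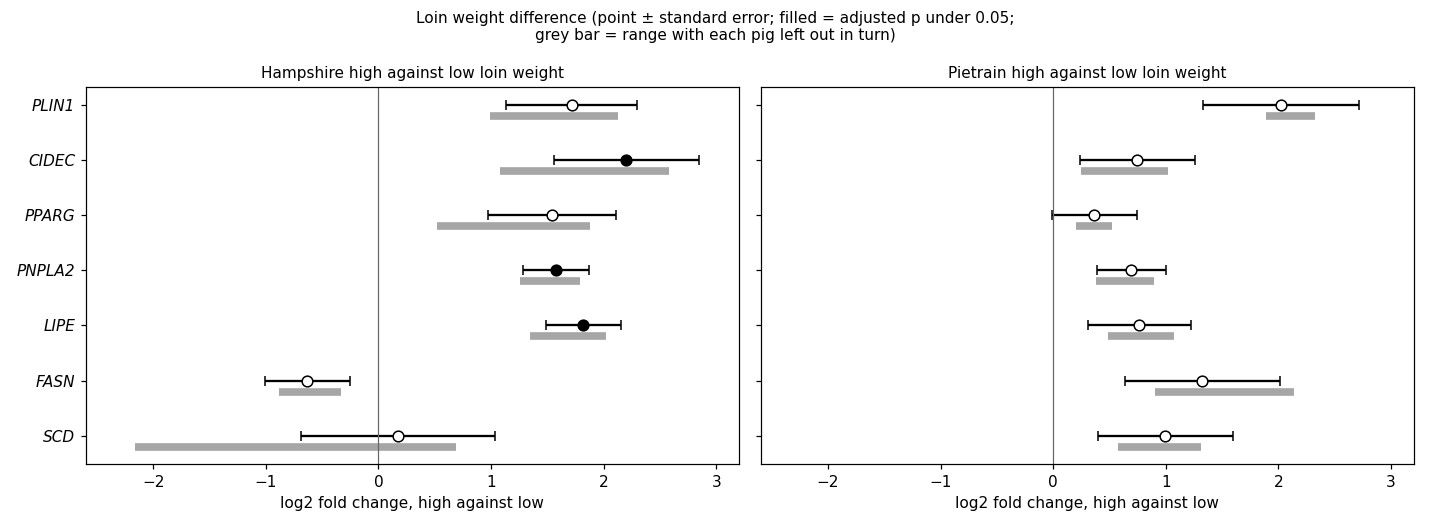
Log2 fold change of each gene, high against low loin weight, within Hampshire pigs (left) and Pietrain pigs (right); points carry bars of 1 standard error, filled points passed the adjusted p threshold, and grey bars give the range when each pig is left out in turn. In Hampshire pigs the grey bar of SCD runs from -2.16 to 0.69, while those of PNPLA2 and LIPE stay above 1.

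The difference in effect between the breeds, tested in 1 fit over the 13 pigs, passed for 0 of the 7 genes by edgeR, against 5.90% of 12831 genes. At an unadjusted p under 0.05, 0 of the 7 passed against 22.1% of all genes, and DESeq2 called 0. The smallest unadjusted p was that of FASN, 0.0501, with an effect lower in Hampshire than in Pietrain pigs by 1.95 on the log2 scale; signed as Hampshire minus Pietrain this is -1.95 (SE 0.909, adjusted p = 0.226). PNPLA2 differed by 0.92 (SE 0.448, adjusted p = 0.248), LIPE by 1.09 (SE 0.607, adjusted p = 0.313) and CIDEC by 1.501 (SE 0.888, adjusted p = 0.347). PPARG gave 1.23 (SE 0.702), SCD -0.78 (SE 1.19) and PLIN1 -0.26 (SE 0.933). Without Hampshire high pig 9 the values were 0.34 for CIDEC, 0.15 for PPARG, 0.58 for LIPE, -3.15 for SCD and -1.03 for PLIN1, with edgeR adjusted p from 0.0833 (SCD) to 0.920 (PPARG). The calls of the lipases and CIDEC in Hampshire pigs alone therefore do not show a difference between breeds.

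Between the breeds, PNPLA2 was higher in Hampshire than in Pietrain pigs at both loin weights, and LIPE at high loin weight. Breed here cannot be told apart from anything else that differed between the 2 sets of libraries, which were deposited as separate tables. Among low pigs 1 of the 7 genes was a DEG, against 17.9% of all genes: PNPLA2, 2.23-fold higher in Hampshire (log2 1.16, SE 0.333, edgeR adjusted p = 0.0316). LIPE was 1.38 higher on the log2 scale (SE 0.457) with an adjusted p of 0.0501. Hampshire and Pietrain low pigs were fully separated in 4 of the 7 genes (PNPLA2, LIPE and PLIN1 higher, SCD lower in Hampshire), against 42.8% of all genes. The call of PNPLA2 among low pigs was lost without Hampshire low pig 2 or 3 or Pietrain low pig 5 or 8, at adjusted p of 0.129, 0.0946, 0.122 and 0.0943, and LIPE passed without Hampshire high pig 8 or 9 or Pietrain high pig 1 or 6, at 0.0487, 0.0424, 0.0457 and 0.0137.

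Among high pigs PNPLA2 was 4.22-fold higher in Hampshire (log2 2.08, SE 0.307, edgeR adjusted p = 0.000157) and LIPE 5.55-fold (log2 2.47, SE 0.408, adjusted p = 0.000338). These 2 of 7 DEGs compare with 46.8% of all genes. They were also the 2 of 7 genes whose groups did not overlap, against 48.7% of all genes, and each gave the smallest exact permutation p possible, 0.0286. CIDEC (log2 1.37, adjusted p = 0.0680), PLIN1 (1.34, 0.0822) and PPARG (0.83, 0.156) gave positive values, and FASN (-1.44, 0.0757) and SCD (-1.70, 0.114) negative ones. The value for SCD was -4.04 without Hampshire high pig 9, with an edgeR adjusted p of 0.00212, and without the same pig those for PPARG, CIDEC and PLIN1 were -0.22, 0.22 and 0.59, with adjusted p of 0.674, 0.769 and 0.496. CIDEC passed without Hampshire high pig 8 or 10 or Pietrain high pig 1 (1.67, 1.69 and 1.88), PLIN1 without Hampshire high pig 8 or Pietrain high pig 1 (1.67 and 1.92) and FASN without Pietrain high pig 6 or 7 (-1.76 and -1.72). With the trend with gene length removed, FASN (-1.65, edgeR adjusted p = 0.0398) and PPARG (1.32, adjusted p = 0.0267) passed as well.

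Markers of slow fibres moved with loin weight in Hampshire pigs. The 5 slow fibre genes (MYH7, TNNI1, TNNC1, TNNT1 and MYL3), markers of oxidative fibres that burn fat, were all DEGs with higher levels. This compares with 12.0% of all genes, and their median log2 fold change was 2.06. The smallest adjusted p were those of TNNC1 (log2 2.06, SE 0.269, edgeR adjusted p = 0.00255), TNNI1 (2.22, SE 0.331, adjusted p = 0.00372) and TNNT1 (2.13, SE 0.319, adjusted p = 0.00376), the slow troponins. They summed to between 11699.6 and 17800 CPM in the high pigs and between 2834 and 6607 CPM in the low pigs. In Pietrain pigs 0 of the 5 were DEGs by edgeR, and the sums ran from 747 to 11159 CPM in the high pigs and from 27.7 to 8271 CPM in the low pigs. Pietrain low pig 5 had the 27.7 CPM, and it had the lowest level of the 13 pigs for 3 of the 7 storage genes (PLIN1, PNPLA2 and FASN). Among the Pietrain low pigs, however, the same pig was the highest for LIPE, SCD, CIDEC and PPARG (4.04, 61.1, 2.69 and 2.37 CPM). The Pietrain high pigs with the largest slow fibre sums, 11159 and 11017 CPM, were pigs 2 and 7, while those with the highest FASN and SCD were pigs 1 and 2.

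Of the 4 muscle fibre markers tested, CKM rose in Hampshire pigs (log2 0.98, SE 0.278, edgeR adjusted p = 0.0325) and MYH1, a fast myosin heavy chain, fell (-1.25, SE 0.374, adjusted p = 0.0390). For the other cell types the counts below stand beside 26.6% of all genes that were DEGs and 12.0% that were DEGs with higher levels. All 3 fibroblast and preadipocyte markers and all 4 macrophage markers tested had log2 fold changes above 0 in Hampshire pigs, against 51.6% of all genes. Their medians were 0.96 and 1.17, and that of the endothelial markers was 0.02. Of the fibroblast and preadipocyte markers 1 of 3 rose in Hampshire pigs, DCN, the matrix proteoglycan decorin, by 1.55 on the log2 scale (SE 0.296, edgeR adjusted p = 0.00820). Their sums were 637 to 1370.1 CPM in the high and 255 to 439 CPM in the low Hampshire pigs, and 228 to 582 and 273 to 459 CPM in the high and low Pietrain pigs. Of the macrophage markers 1 of 4 rose, CD14 (log2 2.06, SE 0.483, adjusted p = 0.0167), with sums of 25.7 to 60.7 CPM in the high and 14.5 to 24.3 CPM in the low Hampshire pigs, and 5.43 to 11.6 and 5.58 to 6.72 CPM in Pietrain pigs. The endothelial markers gave 0 DEGs of 3 in Hampshire pigs, with sums of 131 to 146 and 104 to 142 CPM; PECAM1 gave 0.23 (SE 0.188) and KDR -0.09 (SE 0.214). In Pietrain pigs 0 of these markers were DEGs by edgeR, and only CD68 had an unadjusted p under 0.05. The values ranked first by p there were 0.19 for CKM and -0.14 for MYLPF, 0.48 for MYH7 and 0.42 for MYL3, 0.24 for DCN and 0.38 for PDGFRA, 1.33 for CD68 and 0.61 for CD14, and 0.05 for KDR and 0.03 for PECAM1, with adjusted p from 0.939 to 0.990. Hampshire pig 9 had the highest fibroblast and macrophage sums of the 13 pigs, as well as the highest PLIN1, CIDEC, PPARG and LIPE. It also had the highest muscle fibre sum, 242650 CPM, and the lowest TMM scaling factor, 0.814, and a lower factor gives a higher CPM. The part of slow fibres, fibroblasts and macrophages in the differences of the storage genes was not tested.

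Gene length also moved with loin weight in Hampshire pigs. Over 9945 genes the log2 fold change fell with the genomic span (Spearman rho -0.39 across genes, which are not independent), with a median of 0.42 in the shortest and -0.33 in the longest 25% of genes, while in Pietrain pigs rho was -0.09. PNPLA2 and LIPE are short genes, with spans of 5007 and 9762 bases, and PPARG spans 72185 bases. With the length trend removed, PNPLA2 differed by 1.24 (edgeR adjusted p = 0.0170) and LIPE by 1.63 (adjusted p = 0.00948), and PPARG by 1.88 (adjusted p = 0.0425). CIDEC has no span and was not in that fit.

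Within groups, correlations from pig to pig were mostly higher among the other 6 genes than with PNPLA2. After the group means were removed, Pearson's r of log2 CPM over the 13 pigs was between 0.40 and 0.94 for the 15 pairs without PNPLA2. The highest were SCD with PPARG (0.94), SCD with CIDEC (0.94) and PLIN1 with CIDEC (0.93). The 6 pairs with PNPLA2 ran from -0.21 to 0.51, the last with LIPE, which is above the lowest of the 15 (FASN with PPARG, 0.40). Without Hampshire high pig 9 the 15 pairs lay between 0.43 and 0.92. In a separate check, each pair was left without the 2 pigs farthest from the median of its gene named first on the list. The pigs left out could thus differ from pair to pair. The 15 pairs then lay between 0.18 and 0.90 and the 6 pairs with PNPLA2 between -0.47 and 0.26, so that the ranges overlapped. These values describe 13 libraries that share depth and scaling with every gene, and they carry no test.

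**Figure D3:**
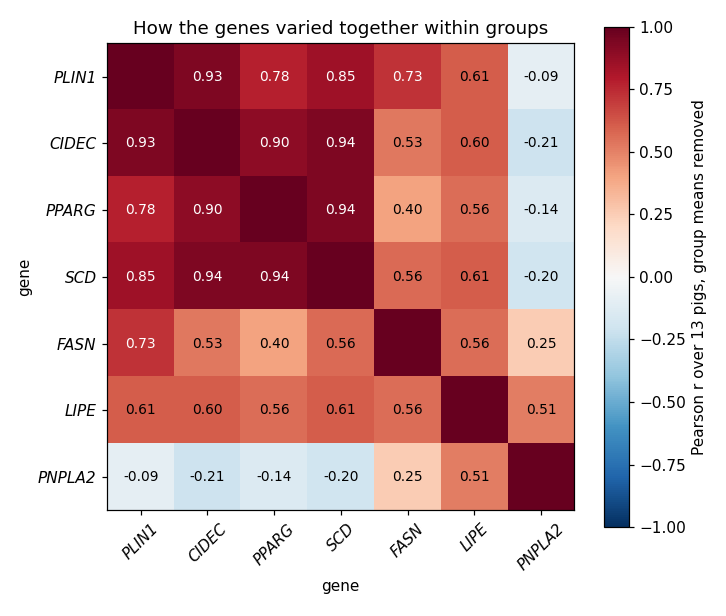
Pearson's r between each pair of the 7 genes over 13 pigs, from log2 CPM with the mean of each group removed. PNPLA2 has values from -0.21 to 0.51 with the others, and the remaining 15 pairs lie between 0.40 and 0.94.

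The genes with the pattern most like that of PLIN1 were found in the same way among 9808 named genes. Those reported are ACVR2B (r = 0.91), DKK3 (0.90), ARG2 (0.87), SDR16C5 (0.86), MARK1 (0.85), CFLAR (0.85) and ALDOC (0.85), over 13 pigs. Of the 7 storage genes, CIDEC had a higher value with PLIN1 (0.93) than any of these 7. Mean levels were as low as 0.432 CPM for SDR16C5, 1.05 CPM for MARK1 and 1.09 CPM for DKK3. Values picked as the highest of 9808 are extreme by selection and carry no test.

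A further 4 lists of lipid genes were counted in Hampshire pigs. Of 18 listed fat cell genes 14 matched and 8 were tested, of which 3 rose and 1 fell, with a median log2 fold change of 1.33; of all genes, 26.6% were DEGs and 12.0% DEGs that were higher. CFD, the fat cell protease adipsin, was 203 ± 52.5 CPM in the high and 58.3 ± 4.91 CPM in the low pigs (SD, n = 3 each; log2 1.80, SE 0.210, edgeR adjusted p = 0.00194). CIDEA, a droplet protein related to CIDEC, rose by 1.54 (SE 0.405, adjusted p = 0.0247), and CEBPA, a transcription factor of fat cell formation, gave 1.90 (SE 0.609, adjusted p = 0.0475). CEBPA passed the filter on low counts only through the high pigs, with 3 to 19 counts in the low pigs, so that it had to differ and its call adds no support. PLIN4, a perilipin found in both fat cells and muscle, fell by 1.08 (SE 0.188, adjusted p = 0.00629), from 143 ± 18.8 CPM in the low to 67.7 ± 10.6 CPM in the high pigs (SD, n = 3 each).

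Of 16 listed genes of fatty acid and triglyceride synthesis 12 were tested, and 0 rose and 1 fell by edgeR, with a median of 0.06. The gene that fell was ACACA, acetyl-CoA carboxylase, which makes the building block that FASN uses (log2 -0.996, SE 0.324, adjusted p = 0.0499). Of 14 listed droplet and lipolysis genes 9 were tested, with a median of 0.39; FITM1, which helps droplets form, rose by 0.78 (SE 0.203, adjusted p = 0.0234) and 0 fell. Of 13 listed genes of fatty acid uptake and carriage 12 were tested, 3 rose and 1 fell, close to the 26.6% of all genes, with a median of 0.21. ANGPTL4, an inhibitor of lipoprotein lipase, rose by 2.34 (SE 0.350, adjusted p = 0.00376), FABP3, the fatty acid carrier of muscle, from 13.6 ± 1.17 to 31.4 ± 9.43 CPM (SD, n = 3 each; edgeR adjusted p = 0.00863) and LMF1, which matures lipoprotein lipase, by 0.58 (SE 0.162, adjusted p = 0.0310). VLDLR, a receptor for triglyceride-rich lipoproteins, fell by 0.49 (SE 0.151, adjusted p = 0.0434).

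In Pietrain pigs 0 genes of these lists were DEGs by edgeR, only PCK1 had an unadjusted p under 0.05, and the medians were 0.13 for fat cell genes, 0.31 for synthesis, 0.04 for droplets and lipolysis and 0.05 for uptake. PCK1 had few counts, 1 to 23 in the Pietrain high and 5 to 35 in the Pietrain low pigs, which limits its precision. The genes ranked first by p, each at an edgeR adjusted p of 0.939, were PCK1 (log2 -2.08, SE 0.924) and RBP4 (-1.18, SE 0.839) among fat cell genes. Among synthesis genes they were ACACA (0.84, SE 0.425) and MLXIPL (0.84, SE 0.570), among droplet genes PLIN5 (1.39, SE 1.03) and G0S2 (-0.84, SE 0.693), and among uptake genes LMF1 (0.57, SE 0.325) and SLC27A1 (0.58, SE 0.351). ACACA thus had a negative value in Hampshire and a positive one in Pietrain pigs, as FASN did.

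**Figure D4:**
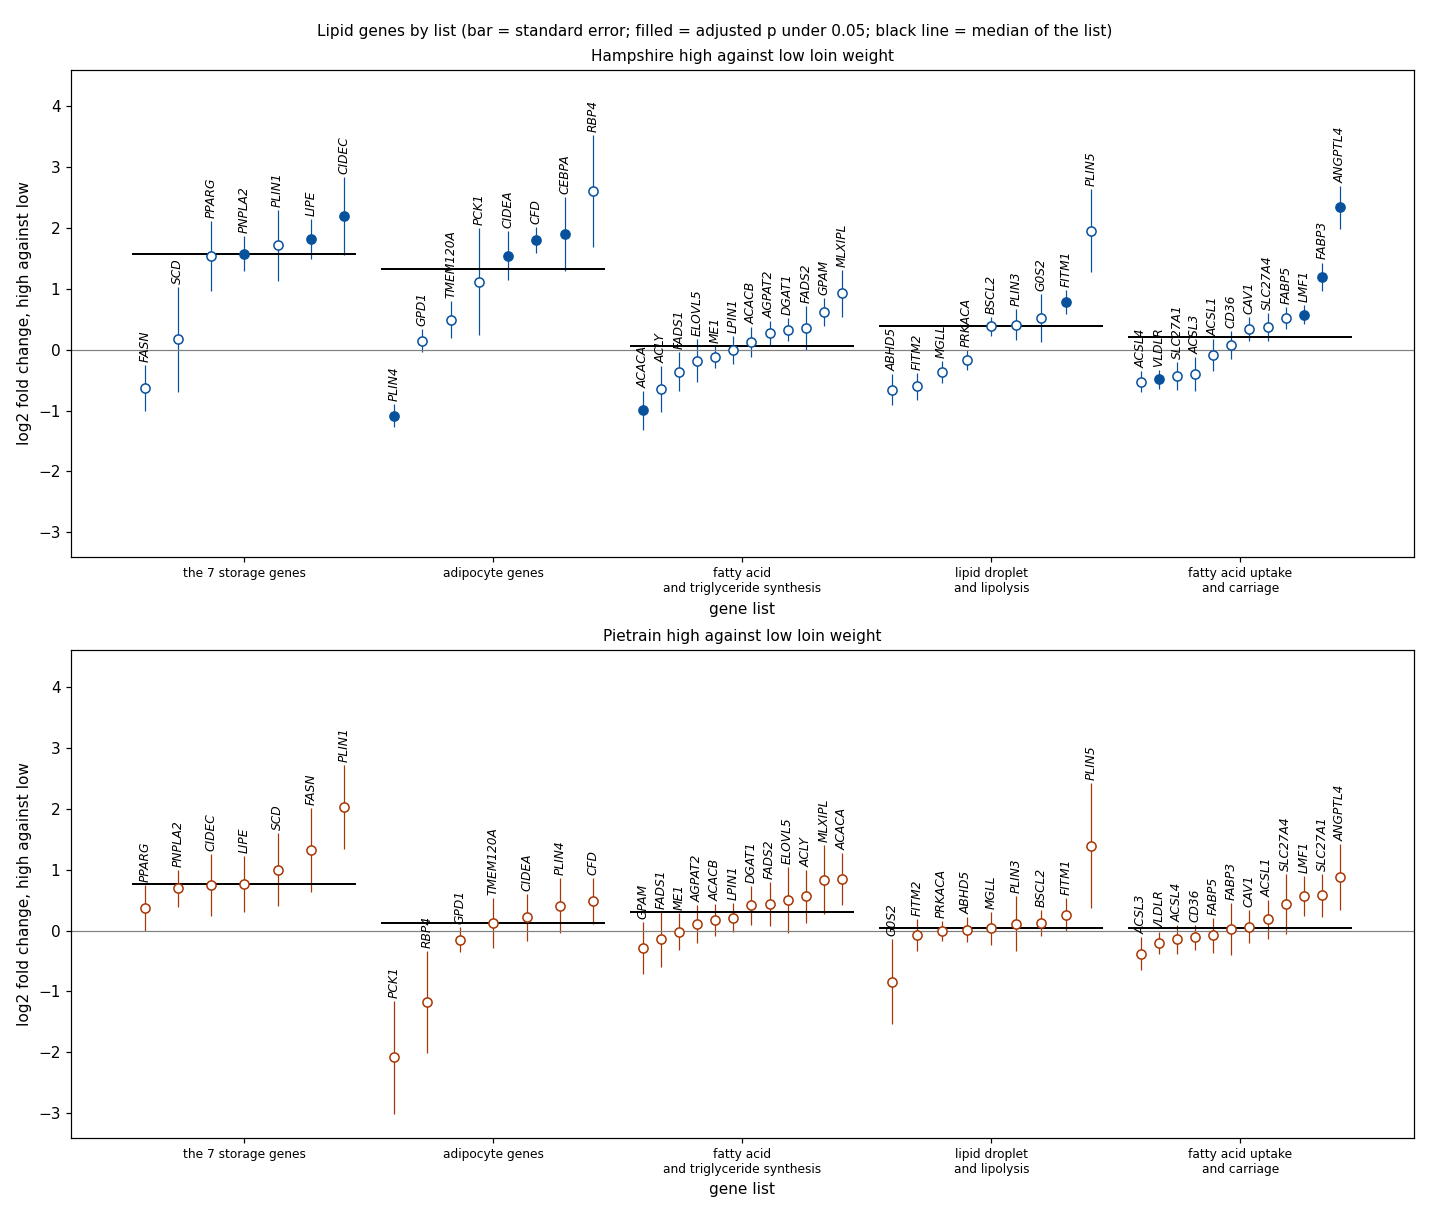
Log2 fold change, high against low loin weight, of every tested gene of the 5 lipid lists in Hampshire pigs (top) and Pietrain pigs (bottom), with bars of 1 standard error, filled points for adjusted p under 0.05 and a black line at the median of each list. In Hampshire pigs the medians are 1.58 for the 7 storage genes and between 0.06 and 0.39 for synthesis, droplets and lipolysis, and uptake; the 1.33 of fat cell genes includes CEBPA, which was tested only through the high pigs.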

How the data were processed

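RNA-seq of longissimus lumborum from 13 pigs was used. The authors deposited raw counts per Ensembl gene and pig, 1 table per breed, after single-end reads from 4 technical runs were aligned to Sscrofa10.2; the submitters' processing notes name FastQC, STAR, RSEM and DESeq2 without their roles, and the counts are whole numbers. The 2 further tables hold the authors' own comparisons (fold changes, p-values) and were used only for gene symbols and positions. Of 25322 identifiers 13168 had a symbol, 6102 of them only from a reference of gene names.

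Counts were tested in R 4.3.3 with edgeR 4.0.16 (TMM, filterByExpr by group, glmQLFit, glmQLFTest), within each breed, and over all 13 pigs for the difference in effect and the breed comparisons. DEGs had a Benjamini-Hochberg adjusted p under 0.05 over all genes tested and changed 1.2-fold or more; no such size was asked of the difference in effect. Each standard error is the size of the log2 fold change over the square root of F. Exact two-sided permutation tests used log2 (CPM + 0.5). The tests were checked on simulated counts. The 15 pairs of pigs within groups all differed by more than sampling noise, so each pig counted as 1 replicate.

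The members and lists were chosen with earlier results of these data known. All listed genes were named, then from each further list, cell markers included, up to 3 DEGs per direction with the smallest adjusted p (with no DEG, the 2 with the smallest p), and the 8 named genes most correlated with PLIN1 (1 of them is not reported here), the only 1 of the 3 genes planned for this that matched. Of 98 listed symbols 75 matched. No sequences were used here.

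The alternatives were DESeq2 1.42.0, its size factors in edgeR, no filter, at least 10 counts in every pig, no fold threshold, 1 fit over all pigs, per-pig offsets removing the trend with genomic span (lowess span 0.5, 9975 genes, all members but CIDEC), and leaving out each pig. Plots were made in Python 3.11.15 (matplotlib 3.10.9).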

Additional observations from a re-analysis of the deposited data

How the results depend on the processing

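The number of the 7 genes called in Hampshire pigs was 3, and 4 with no filter or with 1 fit over all 13 pigs, and 5 with DESeq2. It was 2 to 5 with each pig left out, the highest without high pig 8. For Hampshire against Pietrain at low loin weight it was 1, and 2 with DESeq2, with no filter, with at least 10 counts or with the length trend removed, and 0 to 2 with pigs left out. At high loin weight it was 2, and 4 with DESeq2 or with the length trend removed, and 2 to 4 with pigs left out. In Pietrain pigs and for the difference in effect between the breeds it was 0 under every alternative run, pigs left out included. Among single log2 fold changes, 104 kept direction and side of the threshold under settings that kept all pigs and 10 newly passed; with pigs left out 332 kept both, 14 newly passed, 8 were lost and 7 changed sign. The changes of sign were in SCD in Hampshire pigs (-2.16 to 0.69), PLIN1 in the difference in effect (-1.03 to 0.27), CIDEC between breeds at low loin weight (-0.49 to 0.23) and PPARG between breeds at high loin weight (-0.22 to 1.13); the cause was not tested. Of all genes, 3256 were called in Hampshire pigs and 1224 without low pig 3. No paired analysis was possible because the pig numbers are names of animals and the high and low pigs of a breed share none. PLIN1 had as few as 5 counts in a pig.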
